A study of Mus musculus with 9 samples.

Results

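The transforming growth factor beta (TGF-beta) superfamily was followed here through 47 genes for its ligands, antagonists, receptors, SMAD proteins and ID target genes. The list included the anti-Müllerian hormone (AMH), activin, inhibin, bone morphogenetic protein (BMP) and nodal branches. Members were found by gene name in a table of mouse testis RNA levels, and all 47 were present, out of 23394 genes. The names were given by 55 rows, each a RefSeq transcript, and the rows of a gene were summed. The mice were of strain C57BL/6 and 10 days old. RNA sequencing covered 3 libraries of genotype Lin28a knockout, whose titles carry the letters cKO, and 3 libraries of wild type, all from total RNA of whole testis. The labels name neither an allele nor a Cre driver, and do not say whether each library came from its own animal. A further 3 samples of RNA bound to the LIN28A protein were not analysed here.

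The superfamily signals through secreted dimers that bring together type I and type II receptor kinases. The activated type I receptor phosphorylates receptor SMADs, which bind SMAD4 and act on genes in the nucleus: SMAD2 and SMAD3 serve TGF-beta, activin and nodal, and SMAD1, SMAD5 and SMAD9 serve BMP and AMH. In the testis, Sertoli cells make AMH, which removes the Müllerian ducts of the male fetus, and inhibin, which lowers follicle-stimulating hormone (FSH) from the pituitary. Activins and BMPs are known to act on Sertoli cells and spermatogonia.

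Levels are FPKM, sequenced fragments per length of transcript and per number of mapped fragments. The table holds 1 value for each genotype, in columns named case and control, so no spread between libraries can stand beside any value. The depth behind the values is unknown. Case was read as the knockout and control as the wild type from these names alone. Lin28a, the targeted gene, stood at 23.4 FPKM in the case-labelled column against 8.82 FPKM in the other (p = 5.62e-07, q = 0.00191, from the authors' deposited table). This 2.66-fold higher level goes against the label, so every direction below is given by column name. Pooled FPKM summed to 328509 for case and 325735 for control.

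Most of the pathway was present in both columns. The mean of the 2 columns was at least 100 FPKM for 3 members, 10 to 100 FPKM for 14, 1 to 10 FPKM for 15 and below 1 FPKM for 15. The 32 members at a mean of at least 1 FPKM are described by their difference in log2(FPKM + 1), case minus control. Each of these 32 was above 1 FPKM in both columns, and each of the other 15 was below 1 FPKM in both. Of the 32, 22 (68.8%) had the higher value in the case-labelled column and 10 the lower, against a share of 60.8% of all 12666 genes at that level. With the columns rescaled by their median ratio of 1.03, 21 of the 32 members (65.6%) and 6334 of the 12666 genes were on that side. The median difference of the members was 0.06, against 0.03 for all genes. The testis was sampled whole, so fewer cells of a type and less RNA per cell cannot be told apart in any of these values.

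By the authors' test, 0 of the 30 members with a p-value and a mean of at least 1 FPKM passed a q-value of 0.05 in their deposited table, beside 0.0514% of all tested rows. At an unadjusted p under 0.05 the count was also 0 of 30, or 0 of 31 with Lefty1, the 1 tested member below that level, beside 1.28% of all tested rows. Among the 11645 genes with a p-value and a mean of at least 1 FPKM it was 96. The median p of the 30 was 0.716, against 0.746 for those 11645 genes and 0.731 for all tested rows. The smallest p among the 30 was 0.136 and the largest 0.989 in the authors' deposited table. The q-value of each of these 30 members was 0.99997 there. A fold of at least 1.2 in either direction was reached by 7 of the 32 members (21.9%) and by 15.8% of all genes with a fold, and a fold of at least 1.5 by 0 members and 2.67% of genes. The 7 were Inhba, Inhbb, Acvr1 and Smad3 on the higher side and Id1, Id2 and Id3 on the lower. None of these shares is read as a result about the members.

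**Figure D1:**
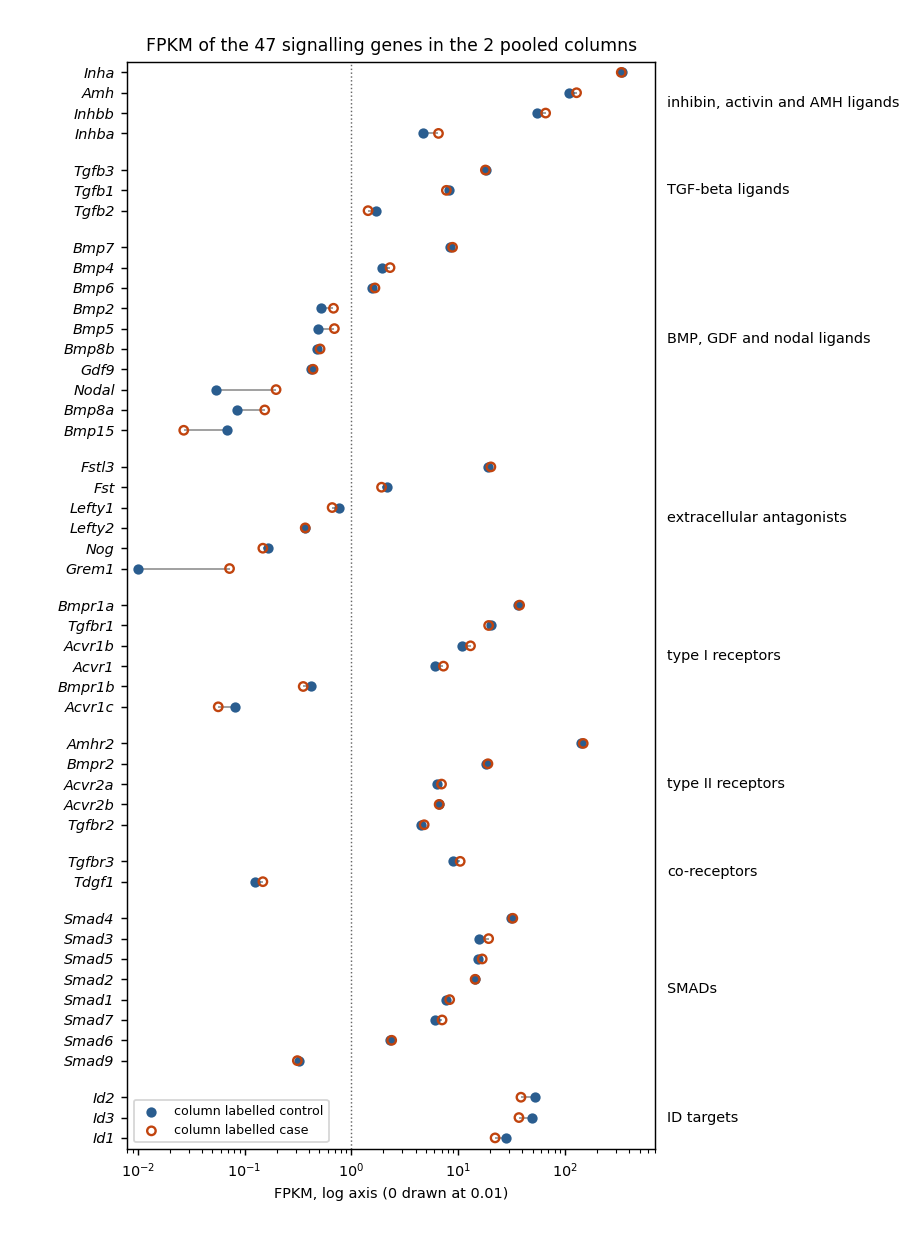
FPKM (log axis) of each of the 47 members in the case-labelled column (open circles) and the control-labelled column (filled circles), grouped by role; the dotted line marks 1 FPKM. Inha is at the top of the scale, at 337 and 343 FPKM, and the pairs of circles lie close together for most genes above 1 FPKM.

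Of the ligands, the Sertoli cell hormones were the most abundant. Inha encodes the inhibin alpha subunit and was the highest member, at 337 FPKM in the case-labelled column and 343 FPKM in the control-labelled column (p = 0.918, from the authors' deposited table). Inha (NM_010564) lies on mm10 chromosome 1, 75507077 to 75510354. Amh (NM_007445; chromosome 10, 80805248 to 80807648) was at 128 and 108 FPKM, 1.19-fold higher in the case-labelled column (p = 0.337, from the authors' deposited table). Both hormone genes thus stood above 100 FPKM in either column.

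The beta subunits, which pair with the alpha subunit as inhibin or with each other as activin, were at higher values in the case-labelled column. Inhbb (NM_008381; chromosome 1, 119415465 to 119422248) was at 65.9 and 54.4 FPKM, 1.21-fold higher (p = 0.264, from the authors' deposited table). Inhba (NM_008380; chromosome 13, 16014475 to 16027211) was at 6.54 and 4.70 FPKM, 1.39-fold higher (p = 0.300, from the authors' deposited table), the largest upward difference among the 32 members, at 0.40. A difference above that of Inhba was found for 1.75% of all genes analysed. Inhbb exceeded Inhba by 10.1 times in the case-labelled column and 11.6 times in the control-labelled column, so the beta B subunit transcript predominated in both. Inha exceeded the sum of the 2 beta subunit transcripts by 4.65 times in the case-labelled column and 5.80 times in the control-labelled column. This ratio, taken within each column and so free of its scaling, was 1.25 times larger in the control-labelled column, and was not tested.

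The TGF-beta ligands were all at slightly lower values in the case-labelled column, beside 4965 of all 12666 genes. The 3 ligands had differences from -0.16 to -0.01. Tgfb3 was the most abundant, at 18.0 FPKM in the case-labelled column and 18.1 FPKM in the control-labelled column (p = 0.963, from the authors' deposited table). Tgfb1 stood at 7.76 and 8.26 FPKM (p = 0.810, from the authors' deposited table). Tgfb2 was the least abundant, at 1.43 and 1.72 FPKM (p = 0.574, from the authors' deposited table). Tgfb3 thus exceeded Tgfb1 by 2.32 times for case, and Tgfb2 by 12.6 times.

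Of the BMP, GDF and nodal ligands, 3 of 10 reached a mean of 1 FPKM. All 3 were at higher values in the case-labelled column, as were 60.8% of all 12666 genes at that level. Bmp7 led at 8.86 and 8.33 FPKM (p = 0.808, from the authors' deposited table). Bmp4, which acts in early germ cell development, stood at 2.30 and 1.95 FPKM (p = 0.660, from the authors' deposited table). Bmp6 was at 1.66 and 1.55 FPKM (p = 0.857, from the authors' deposited table). The other 7 had no test in that table. Bmp2 was at 0.680 and 0.517 FPKM and Bmp5 at 0.693 and 0.483 FPKM. The germ cell ligand genes Bmp8a and Bmp8b, which are close copies of each other and may share reads, were at 0.155 and 0.0849 FPKM and at 0.509 and 0.480 FPKM. Gdf9, known from the oocyte, was at 0.438 and 0.419 FPKM, and Bmp15, also of the oocyte, at 0.0270 and 0.0690 FPKM. Nodal was at 0.197 and 0.0545 FPKM. No direction is read from values at this level.

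Among the 6 extracellular antagonists of the list, the most abundant was Fstl3, a follistatin-like protein that binds activin, at 20.2 FPKM in the case-labelled column and 18.8 FPKM in the control-labelled column (p = 0.725, from the authors' deposited table). The BMP antagonist gene Twsg1, which is no member, stood above it at 42.9 and 39.4 FPKM, as did Nbl1 at 28.8 and 29.4 FPKM. The locus that the table gives for Fstl3 is shared by 46 genes and is too wide to be a gene position. Fst, which encodes follistatin, was at 1.92 and 2.14 FPKM (p = 0.767, from the authors' deposited table). The activin beta transcripts together exceeded Fst plus Fstl3 by 3.27 times for case and 2.82 times for control. Lefty1 and Lefty2, close copies that encode nodal inhibitors, were at 0.661 and 0.765 FPKM and at 0.370 and 0.365 FPKM. Of these only Lefty1 was tested (p = 0.778, from the authors' deposited table). Of the BMP antagonists, Nog was at 0.148 and 0.165 FPKM, and Grem1 was at 0.0723 FPKM in the case-labelled column and listed at 0 in the other.

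Among type I receptors, Bmpr1a was the most abundant. It binds BMPs and is also a partner of the AMH receptor, and was at 37.6 FPKM in the case-labelled column and 36.1 FPKM in the control-labelled column (p = 0.807, from the authors' deposited table). Its relative Bmpr1b was at 0.354 and 0.423 FPKM, so Bmpr1a exceeded it by 106 times and 85.4 times. Tgfbr1, the TGF-beta type I receptor, stood at 19.3 and 20.3 FPKM (p = 0.759, from the authors' deposited table). Acvr1b, the activin type I receptor, was at 13.1 and 10.9 FPKM, higher by 0.24 on the log2 scale (p = 0.392, from the authors' deposited table). Acvr1, another BMP and AMH receptor, was at 7.28 and 6.02 FPKM, 1.21-fold higher, summed over 3 rows that carry the status FAIL and so no usable p-value. Acvr1c was at 0.0567 and 0.0821 FPKM. Bmpr1a exceeded Acvr1 by 5.17 times for case and 6.00 times for control.

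Type II receptors were at higher values in the case-labelled column for all 5 genes, or for 4 with rescaled columns, which turned Acvr2b. On that side were 7701 of all 12666 genes at a mean of at least 1 FPKM, or 6334 with rescaled columns. The differences of the 5 receptor genes ran from 0.0049 to 0.11. Amhr2, the receptor of AMH, was the second most abundant member, at 148 FPKM for case and 142 FPKM for control (p = 0.803, from the authors' deposited table). It exceeded the sum of the other 4 type II receptors by 3.96 times for case and 3.98 times for control, and Amh itself by 1.15 times and 1.31 times. Bmpr2, which binds BMPs, stood at 19.0 and 18.1 FPKM (p = 0.792, from the authors' deposited table). The activin receptor Acvr2a was at 6.99 and 6.39 FPKM (p = 0.660, from the authors' deposited table), and its relative Acvr2b at 6.64 and 6.61 FPKM (p = 0.989, from the authors' deposited table). Tgfbr2, which binds TGF-beta, was at 4.81 and 4.52 FPKM summed over 2 rows of status FAIL. Of the co-receptors, Tgfbr3 (betaglycan), which presents TGF-beta and inhibin, was at 10.5 and 8.98 FPKM (p = 0.412, from the authors' deposited table), and the nodal co-receptor Tdgf1 was at 0.148 and 0.125 FPKM.

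The promoter of Amhr2 is shown because this receptor stands far above the other type II receptors in both columns. The run gives the 250 bases before the start on the plus strand of GRCm38.p6 (RefSeq), at chr15:102445117-102445366, and ends where the deposited locus of Amhr2 begins. Capitals mark CAAGGTCA, which holds the hexamer AGGTCA read by many nuclear receptors and is of the kind bound by NR5A1, a regulator of Sertoli and Leydig cell genes.
Amhr2: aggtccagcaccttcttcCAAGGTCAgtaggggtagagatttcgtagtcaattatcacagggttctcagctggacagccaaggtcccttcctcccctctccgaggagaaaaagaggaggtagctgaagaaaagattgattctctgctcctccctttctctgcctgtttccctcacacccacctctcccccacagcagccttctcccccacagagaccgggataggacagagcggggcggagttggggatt
The match begins 232 bases before the start. Searched on both strands, this motif was in the windows of 1.33% of 32851 promoters and, among 33 members with a promoter in the RefSeq table, in that of Amhr2. The other members, Amh among them, had no promoter there and were not searched. Nr5a1 itself was at 53.4 FPKM in the case-labelled column and 49.5 FPKM in the control-labelled column (p = 0.658, from the authors' deposited table). The match is a description of letters and does not show binding.

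Several of these genes had rows that went in different directions. For Acvr1, the row NM_001110205 was at 5.52 FPKM in the case-labelled column and 3.20 FPKM in the control-labelled column, 1.73-fold higher. Its row NM_007394 was at 1.55 and 2.68 FPKM, or 1.73-fold lower. For Tgfbr2, NM_029575 was at 3.29 and 2.15 FPKM, 1.53-fold higher, and NM_009371 at 1.52 and 2.38 FPKM, 1.57-fold lower. In both genes the transcript that led in one column did so less, or not at all, in the other, while the sums were 1.21-fold and 1.06-fold higher in the case-labelled column. All of these rows carry the status FAIL, so the split between transcripts has no test. Smad5 had NM_008541 as its leading row, at 15.9 and 14.6 FPKM, with the other rows below 1 FPKM.

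**Figure D2:**
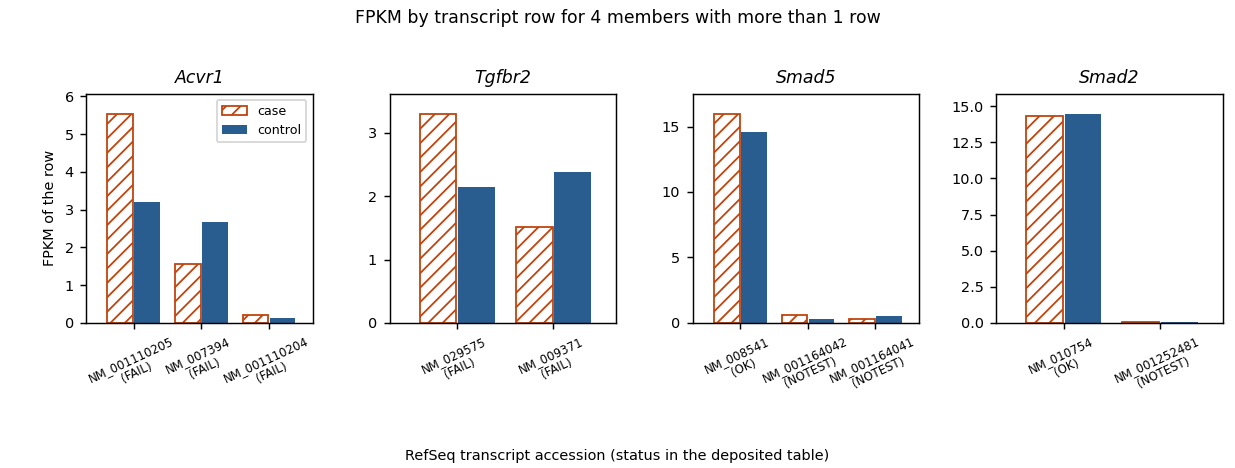
FPKM of each transcript row of Acvr1, Tgfbr2, Smad5 and Smad2 in the case-labelled column (hatched) and the control-labelled column (filled), with the status of the row in brackets. In Acvr1 and Tgfbr2 the leading row is higher for case and the next row higher for control, whereas in Smad5 and Smad2 a single row holds nearly all of the FPKM.

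SMAD genes were present for every class. Of the 7 at a mean of at least 1 FPKM, 6 were at higher values in the case-labelled column, beside 60.8% of all 12666 genes. Their median difference was 0.11, against 0.03 for all genes. Of the SMADs of TGF-beta and activin, Smad3 was at 19.3 FPKM for case and 15.6 FPKM for control, 1.24-fold higher (p = 0.230, from the authors' deposited table). That p was the smallest of any SMAD. Its partner Smad2 was at 14.4 and 14.5 FPKM (p = 0.970, from the authors' deposited table). Of the SMADs of BMP and AMH, Smad5 stood at 16.8 and 15.4 FPKM over its 3 rows (p = 0.610 for the leading row, from the authors' deposited table). Smad1 was at 8.33 and 7.64 FPKM (p = 0.707, from the authors' deposited table), and Smad9 was at 0.312 and 0.320 FPKM. Smad2 plus Smad3 exceeded Smad1, Smad5 and Smad9 together by 1.33 times for case and 1.29 times for control. The shared partner Smad4 was the most abundant SMAD, at 32.5 and 31.4 FPKM (p = 0.842, from the authors' deposited table). The inhibitory SMADs, themselves known targets of the pathway, were less abundant, with Smad7 at 7.07 and 6.09 FPKM (p = 0.494, from the authors' deposited table) and Smad6 at 2.39 and 2.32 FPKM (p = 0.928, from the authors' deposited table).

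The ID genes of the list were Id1, Id2 and Id3. They encode helix-loop-helix proteins without a DNA-binding region, which hold back other factors of that class, and are known direct targets of BMP and SMAD signalling. All 3 were at lower values in the case-labelled column, as were 7 of the other 29 members at a mean of at least 1 FPKM. Id2 (NM_010496; chromosome 12, 25093799 to 25096092) was at 38.7 FPKM for case and 51.9 FPKM for control, 1.34-fold lower (p = 0.136, from the authors' deposited table). Id3 (NM_008321; chromosome 4, 136143822 to 136145392) was at 37.1 and 49.5 FPKM, also 1.34-fold lower (p = 0.179, from the authors' deposited table). Id1 (NM_010495; chromosome 2, 152736274 to 152737410) was at 22.2 and 28.1 FPKM, 1.27-fold lower (p = 0.345, from the authors' deposited table). Id4, a relative that is no member, was at 4.94 and 6.61 FPKM, 1.34-fold lower (p = 0.345, from the authors' deposited table).

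None of the values of Id2, Id3 and Id1 passed the authors' test. Their differences of -0.41, -0.41 and -0.33 were the lowest of the 32 members, the next being Tgfb2 at -0.16. A difference at or below that of Id1 was found for 360 of 12666 genes, or 2.84%. Rescaling the columns by their median ratio left all 3 ID genes lower in the case-labelled column.

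**Figure D3:**
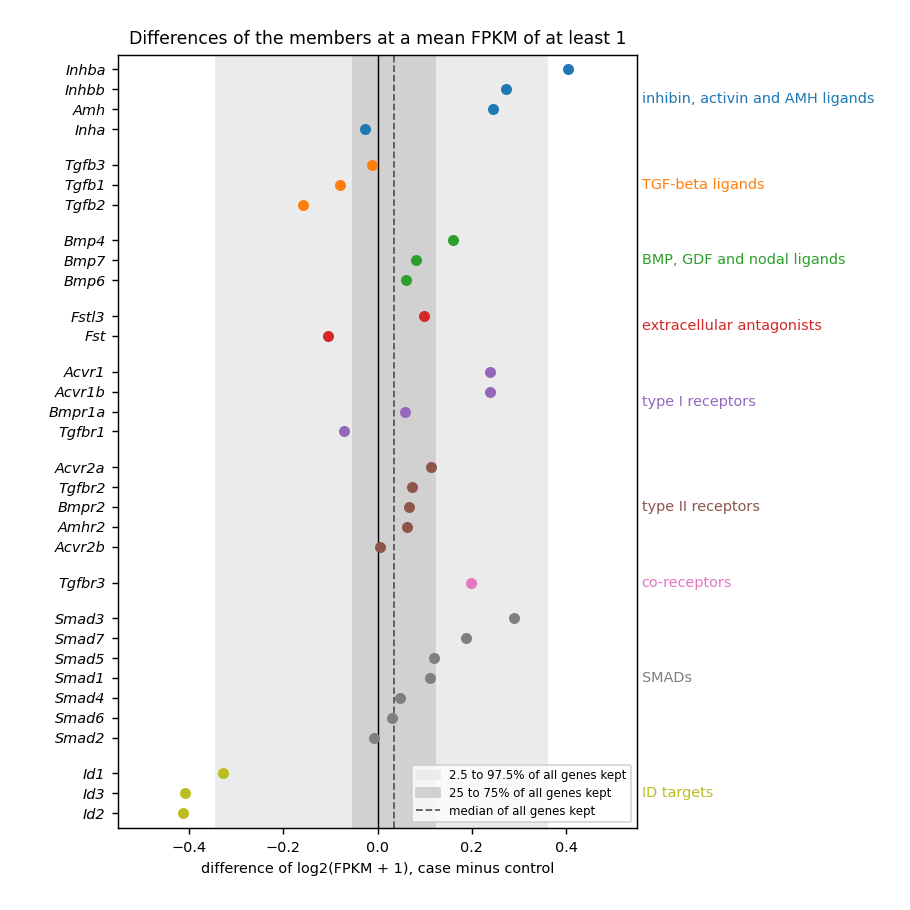
Difference of log2(FPKM + 1), case minus control, for the 32 members at a mean of at least 1 FPKM, by role. The dark and light bands hold the middle 50% and 95% of all 12666 genes at that level and the dashed line is their median of 0.03. Id2 and Id3, at -0.41, and Inhba, at 0.40, lie outside the light band, and Id1, at -0.33, lies near its edge.

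The promoters of Id2 and Id3 are shown because these genes had the lowest differences of the list. Each run gives the 250 bases before the start in GRCm38.p6 (RefSeq), read 5′ to 3′ on the strand of the gene, at chr12:25096093-25096342 on the minus strand for Id2 and chr4:136143572-136143821 on the plus strand for Id3. Both starts match the edge of the deposited locus. Capitals mark GGCGCC, a palindrome known as a core of BMP response elements. Id1 had no promoter in the RefSeq set, so none was searched or printed.
Id2: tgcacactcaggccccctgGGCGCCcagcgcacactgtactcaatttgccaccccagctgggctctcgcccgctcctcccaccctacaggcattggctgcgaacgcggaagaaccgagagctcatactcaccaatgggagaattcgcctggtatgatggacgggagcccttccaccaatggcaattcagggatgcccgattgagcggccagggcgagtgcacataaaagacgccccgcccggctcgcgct
Id3: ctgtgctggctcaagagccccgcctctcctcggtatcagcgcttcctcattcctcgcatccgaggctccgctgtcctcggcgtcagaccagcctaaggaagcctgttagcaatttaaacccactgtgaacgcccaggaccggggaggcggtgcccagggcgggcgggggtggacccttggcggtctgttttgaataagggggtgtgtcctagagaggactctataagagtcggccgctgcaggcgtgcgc
The window of Id2 held 1 match, beginning 231 bases before the start, and that of Id3 held 0. The same letters were in 9.59% of all 32851 windows and in 7 of 33 members (Bmpr1a, Bmpr2, Grem1, Id2, Smad5, Smad9 and Tgfbr1). Both windows were 62.8% G and C, against a median of 52.4% over all windows, which bears on how often GGCGCC occurs. The SMAD motif GTCTAGAC was in 0.167% of windows and in 0 of 33 members. The motif CAGACA was in 17.1% of windows and in 6 of 33 members (Bmp5, Bmp8b, Bmpr1b, Fstl3, Tgfb2 and Tgfbr1). Both strands were searched, and a match or its absence in these windows shows nothing of binding.

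Other genes of the pathway came from a list of 79 ligands, antagonists, processing enzymes, SMAD regulators, targets and gonadal factors. Of the 52 at a mean of at least 1 FPKM, 41 (78.8%) were higher in the case-labelled column and 11 lower, against 60.8% of all 12666 genes. With rescaled columns 40 (76.9%) were higher, against 6334 of the 12666 genes. Their median difference was 0.12 against 0.03 for all genes. By the authors' test, 0 of the 48 with a p-value passed at a q-value of 0.05, beside 0.0514% of all tested rows. An unadjusted p under 0.05 was found for 0, beside 1.28% of all tested rows. The smallest p was that of Acvrl1, a type I receptor of endothelial cells, at 12.5 and 8.59 FPKM (p = 0.0694, from the authors' deposited table). Its endothelial co-receptor Eng was at 9.76 and 7.73 FPKM over 3 rows (p = 0.130 for the leading row, from the authors' deposited table). Tgfbi, a matrix protein induced by TGF-beta, was at 38.5 and 28.4 FPKM (p = 0.0872, from the authors' deposited table). Pcsk6, a convertase that cleaves precursors of these ligands, was at 11.4 and 8.48 FPKM (p = 0.129, from the authors' deposited table).

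Values of 3 other known targets and feedback genes, chosen after they were seen, are given beside those of the ID genes. Bambi, a decoy receptor, was at 7.08 FPKM for case and 5.85 FPKM for control (p = 0.366, from the authors' deposited table). Ccn2, a matrix-associated TGF-beta target, was at 45.6 and 36.3 FPKM (p = 0.213, from the authors' deposited table). Atoh8, a BMP target, stood at 4.95 and 4.69 FPKM (p = 0.851, from the authors' deposited table). Whether the ID genes differ from these as a group was not tested.

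Markers of 8 cell types or germ cell stages, chosen with earlier results of these data known, were set beside these values. Of all 12666 genes at a mean of at least 1 FPKM, 60.8% were higher in the case-labelled column and 4965 genes were lower. There were 84 markers with a p-value and a mean of at least 1 FPKM. By the authors' test, 1 of these 84 passed a q-value of 0.05, beside 0.0514% of all tested rows. That 1 was Lin28a. At an unadjusted p under 0.05 there were 11 of the 84, beside 1.28% of all tested rows and 96 of the 11645 genes so filtered. Of these 11, 2 were higher and 9 lower in the case-labelled column, with 7 of the 9 in the meiotic prophase list. Meiotic prophase markers were lower in the case-labelled column for 18 of 18, with a median difference of -0.58 and a summed level of 457 FPKM against 709 FPKM, and Tex101 had the smallest p (p = 1.95e-04, q = 0.292, from the authors' deposited table). Macrophage markers were lower for 8 of 8, at 85.8 FPKM in sum for case and 106 FPKM for control, with the smallest p for Lyz2 at 31.9 and 45.6 FPKM (p = 0.0957, from the authors' deposited table). Differentiating spermatogonia markers were lower for 6 of 8 at 253 and 307 FPKM, and for 8 of 8 with rescaled columns. Of these, Prss50 was at 22.2 and 46.95 FPKM (p = 2.14e-04, q = 0.292, from the authors' deposited table). Undifferentiated spermatogonia markers, Lin28a among them, were higher for 8 of 11 above the filter, with all 12 summing to 101 and 84.0 FPKM. Without Lin28a they were higher for 7 of 10, and the other 11 summed to 77.2 and 75.2 FPKM.

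Leydig cell markers were higher in the case-labelled column for 9 of 10, beside 60.8% of all 12666 genes. They summed to 416 and 333 FPKM, with Hsd17b3 at 38.7 and 24.6 FPKM (p = 0.0302, from the authors' deposited table). Peritubular and stromal markers were higher for 12 of 12 at 1109 and 963 FPKM, or 11 with rescaled columns, with Col1a1 at 69.9 and 53.9 FPKM (p = 0.124, from the authors' deposited table). Endothelial markers were higher for 8 of 9 above the filter, with all 10 summing to 48.9 and 41.0 FPKM. Sertoli cell markers, of the cells that make AMH and inhibin, were lower for 9 of 14 with a median of -0.04 and sums of 5062 and 5255 FPKM. Among them Rhox5 had the smallest p, at 8.90 and 19.3 FPKM (p = 0.0254, from the authors' deposited table). The most abundant was Clu, at 2028 and 2251 FPKM (p = 0.879, from the authors' deposited table). The other 5 of the 14 were higher, with Cst9 at 596 and 416 FPKM (p = 0.0593, from the authors' deposited table). In these 8 lists 0 markers were listed at 0 in both columns. The part of each cell type in the differences of the signalling genes was not tested.

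**Figure D4:**
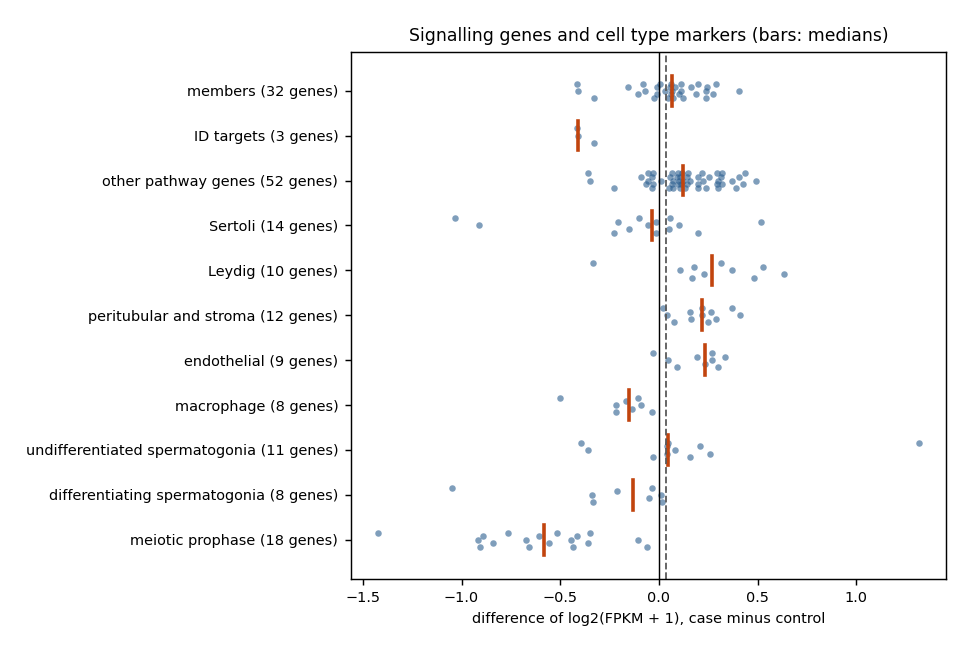
Difference of log2(FPKM + 1), case minus control, of each gene at a mean of at least 1 FPKM (dots), with the median of each list (bars) and of all genes (dashed line). The medians of the ID genes (-0.41) and of the meiotic prophase (-0.58), macrophage (-0.15), differentiating spermatogonia (-0.13) and Sertoli cell (-0.04) markers lie below 0, and those of the other lists above it; 8 of the other pathway genes are also markers (Eng, Fshr, Gata1, Id4, Lhcgr, Nr5a1, Sox9 and Wt1).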

How the data were processed

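Per the submitters' processing notes, reads were aligned with TopHat2 version 2.0.9 to mm10. The sources used here do not name the program behind the expression values and the test, nor say how libraries entered it. The authors deposited FPKM values in 2 pooled columns, per the file headers, with a p-value and a q-value for each of 29661 transcript rows, of which 13629 carried a test. Rows of status FAIL (2896) carry no usable p-value and were read as untested.

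Members and lists were chosen with earlier results of these data known. Members were matched by gene name in any letter case, and other rows took the RefSeq symbol (GRCm38.p6) of their accession (98.0% matched). FPKM was summed over the rows of a gene, and its p-value is that of its row with the highest mean FPKM. Genes were kept at a mean FPKM of at least 1. Differences used a pseudocount of 1, which shrinks those of low genes. Starts were read as counting from 0, and 1 was added, since 13980 rows start 1 base below the RefSeq gene start and 996 start at it. No test of this report's own was run, since each group has 1 value. Every member is named, with the 5 other pathway genes, of which 1 is not reported here, and the 1 marker of each list that had the smallest p-value. Twsg1, Nbl1, Nr5a1, Id4, Bambi, Ccn2, Atoh8, Cst9 and Clu were named after their values were seen. The marker Etd was not found. The script was tested on simulated data, with Python 3.11.15, pandas 2.3.3 and numpy 2.4.6.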

Additional observations from a re-analysis of the deposited data

How the results depend on the processing

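The counts of members passing the authors' test stayed at 0 with a q-value under 0.10, with p-values adjusted again over rows at a mean FPKM of at least 1, and with any tested row of a gene. The count at an unadjusted p under 0.05 stayed at 0 with any tested row, without a filter and at a mean FPKM of at least 5. The median difference of the members, 0.06, ran from 0.03 to 0.08 under 6 alternatives (no filter, a mean FPKM of at least 5, rescaled columns, the leading row only, FAIL rows left out, and a pseudocount of 0.1). With rescaled columns it was 0.03. The number of members higher in the column labelled case was 22 of 32, 31 of 47 without a filter, 18 of 26 with that stricter filter, 21 of 32 rescaled, 22 of 32 by the leading row and 20 of 30 without FAIL rows. Of 96 values of the 32 single members under 3 alternatives, 94 moved by less than 0.1 on the log2 scale. The other 2 were Acvr1 and Tgfbr2 by their leading row alone, at 0.64 and 0.45, since their rows went in opposite directions. Leaving out each library was not run, because each group is 1 pooled column, and no paired analysis was possible because of the same. Depth is unknown and gives no interval.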

Other observations

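ID proteins act by binding E proteins, the widely expressed helix-loop-helix factors, whose genes were looked at after the values of the ID genes were seen. Tcf3 was at 48.8 FPKM in both columns, Tcf12 at 37.8 FPKM for case and 37.03 FPKM for control, and Tcf4 at 12.8 and 10.9 FPKM, each summed over several rows. With rescaled columns Tcf12 turned to the lower side. The leading row of each gene carries the status FAIL, so none has a p-value. The transcripts of Id1, Id2 and Id3, without Id4, summed to 98.0 FPKM for case and 130 FPKM for control. Those of the E proteins summed to 99.4 and 96.8 FPKM. No ratio of the proteins is read from these sums.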
